A study of Homo sapiens with 21 samples.

Results

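*LPP* was examined as an RNA bound by HNRNPK, across its introns, coding sequence and 3'UTR, in 4 PAR-CLIP libraries. A cluster here is a short stretch of overlapping reads with T-to-C changes, and the clusters studied were all those that the deposited files assign to the gene name *LPP*. They numbered 737 of 778762 clusters in all. The gene had been chosen because it held the most 3'UTR clusters of any gene in the parental cytoplasmic library, so that count is given as a description only.

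The libraries came from MDA-MB-231 cells, a line long established from a breast cancer of the triple-negative type, either parental or with *KRT19*, the gene of keratin 19, knocked out by CRISPR/Cas9 (*KRT19* KO). Cells of both kinds were fed 4-thiouridine, crosslinked with long-wave UV light and separated into fractions, and RNA was immunoprecipitated with an antibody to HNRNPK/J. The 4 groups were the parental cytoplasm, the *KRT19* KO cytoplasm, the parental nucleus and the *KRT19* KO nucleus, with 1 library each. Whether the knockout line is a single clone was not given in the sources used here. With no replicates, no difference below was tested, and every interval covers counting error only, within 1 library or between 2. The sources state that duplicate reads were removed by molecular identifiers, and the files hold none, so whether reads are independent molecules could not be checked. The RNA-seq samples of the series were not analysed here, so a change in bound reads and a change in *LPP* RNA cannot be told apart.

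HNRNPK is an RNA-binding protein whose KH domains prefer short runs of cytosines in single-stranded RNA, and it shuttles between nucleus and cytoplasm. It takes part in splicing, RNA stability and translation. *LPP* encodes the LIM domain-containing lipoma-preferred partner, a zyxin family protein that sits at focal adhesions and cell-cell contacts and binds actin regulators of the VASP family. The gene is long, and one of its introns hosts the microRNA gene *MIR28*.

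On GRCh37, *LPP* lay on the plus strand at chr3:187871945-188608460 in the transcript model used here, with 12 exons, 11 introns and a 3'UTR of 16193 nt at chr3:188592268-188608460. All 737 cluster sequences equalled the GRCh37 sequence at their coordinates, and all 737 were on the plus strand.

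The sequences below show the kinds of stretch that the *LPP* reads came from. Each is at most 30 nt of the deepest cluster of a site, 5' to 3' on the RNA strand with T for U, and capitals mark words of the C-rich motif searched for, 5 letters that begin with uracil or adenine, go on with any base but guanine and end in CCC (TACCC is one such word), where neighbouring words can share letters. A site is the union of clusters from the 4 libraries that overlap by at least 1 nt. The first lines are the 8 3'UTR sites with the highest level in any library, named by the distance of the site from the stop codon.
3'UTR site at 0.909 kb, chr3:188593193-188593222: cacaactatcaaaattgcctttttctctag
3'UTR site at 7.30 kb, chr3:188599569-188599598: tttcctccatattttcatattaaatattaa
3'UTR site at 1.43 kb, chr3:188593716-188593745: aaatctcccacaagtatatacttttaaatt
3'UTR site at 0.865 kb, chr3:188593132-188593161: attttcaatactgtcccacttctcatctta
3'UTR site at 13.3 kb, chr3:188605611-188605640: ctttcttccttttacTACCCatttcctctc
3'UTR site at 7.24 kb, chr3:188599511-188599540: agttcatattccattcaaccttttcctttt
3'UTR site at 10.7 kb, chr3:188602975-188603004: tgtgaagtgagagaaaaaatatcatttctt
3'UTR site at 0.764 kb, chr3:188593033-188593062: aaaaacattattgtcccacaatattacctt

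The next lines are 7 of the 8 intron sites that the same rule chose, followed by the coding site with the most reads.
Intron 3 site, chr3:188077393-188077419: ccttccttaATCCCCtcaacTACCCag
Intron 6 site, chr3:188246165-188246194: ttttttccTCCCCtaaatccttataaccta
Intron 2 site, chr3:187968316-187968345: cttatcaaaatatTACCCtacattttttcc
Intron 2 site, chr3:188039537-188039566: ctttTTCCCCcaaaaccacacactaacacg
Intron 2 site, chr3:187957729-187957758: tttattttATCCCaaacacctcactttaca
Intron 2 site, chr3:188015414-188015443: ctaaaatcttttctTTCCCCttccatttta
Intron 8 site, chr3:188437510-188437539: TTCCCtttcaaaccaccatcaTTCCCCcaa
Coding site in exon 5, chr3:188202384-188202411: ttttcttccACCCCcacctccacctcta
Of the 8 3'UTR sites 1 held the motif anywhere along its length, and 4 held CCC. All 7 of the intron sites shown held it.

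The libraries held 5551612 reads in clusters in the parental cytoplasm, 6216226 in the *KRT19* KO cytoplasm, 3537577 in the parental nucleus and 3252800 in the *KRT19* KO nucleus. *LPP* took 6084, 6146, 3399 and 2237 of these in the same order. They came from 1968, 2858, 679 and 425 unique reads. The intervals on reads below count every read as independent, so they may be too narrow. Levels are given in RPM, the reads of a gene, class or site per 1000000 reads in clusters of the same library. A level is thus a share of its library, and a ratio between libraries cannot show a change in the total amount of RNA bound.

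Bound RNA of marker genes was looked at first. *CD44*, a mesenchymal surface protein, stood at 380.2, 368.9, 330.2 and 434.4 RPM in the same order of libraries. *VIM*, which encodes vimentin, stood at 37.3, 45.4, 47.2 and 21.2. The progesterone receptor gene *PGR* had no cluster, and the estrogen receptor gene *ESR1* had 13.7, 4.18, 21.8 and 18.4 RPM. *KRT19* itself had 1 intron cluster of 7 reads in the parental cytoplasm, 1 of 5 reads in the *KRT19* KO cytoplasm and none in either nucleus, too few to check the knockout. Of the nuclear-retained RNAs, *NEAT1* was higher in the nuclear libraries, at 789.0 and 1092 RPM against 226.4 and 203.8 in the cytoplasm, as was *KCNQ1OT1*, at 45.5 and 166.6 against 22.5 and 57.4. *MALAT1* went against the labels, with 1229 and 842.3 in the cytoplasmic libraries of parental and *KRT19* KO cells against 887.6 and 548.1 in the nuclear ones. Mitochondrial clusters took 0.708% of the reads in the parental cytoplasm and 0.918% in the parental nucleus, against 4.64% and 3.72% in the *KRT19* KO cytoplasm and nucleus. The part of these library differences in the *LPP* values was not tested.

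The cytoplasmic *LPP* reads came mostly from the 3'UTR, while the nuclear reads came almost wholly from introns. In the parental cytoplasm 37 3'UTR clusters held 3769 reads, 678.9 RPM (95% Poisson interval 657.4 to 700.9). In the *KRT19* KO cytoplasm 41 clusters held 4789 reads, or 770.4 RPM (748.7 to 792.5). The nuclear libraries had 14 3'UTR clusters with 265 reads in parental cells and 11 with 193 reads in *KRT19* KO cells, or 74.9 (66.2 to 84.5) and 59.3 (51.3 to 68.3) RPM. Both cytoplasmic values thus lay far above both nuclear ones.

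For introns the order was different. The parental nucleus had 196 intron clusters and 884.2 RPM (853.5 to 915.8), and the *KRT19* KO nucleus had 139 clusters and 618.2 (591.5 to 645.9). The parental cytoplasm still had 176 intron clusters, with 411.8 RPM (395.1 to 429.0), and the *KRT19* KO cytoplasm had 115, with 209.8 (198.5 to 221.5). The 4 intervals, which count every read as independent, did not overlap, and in each fraction the parental library was the higher one.

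**Figure D1:**
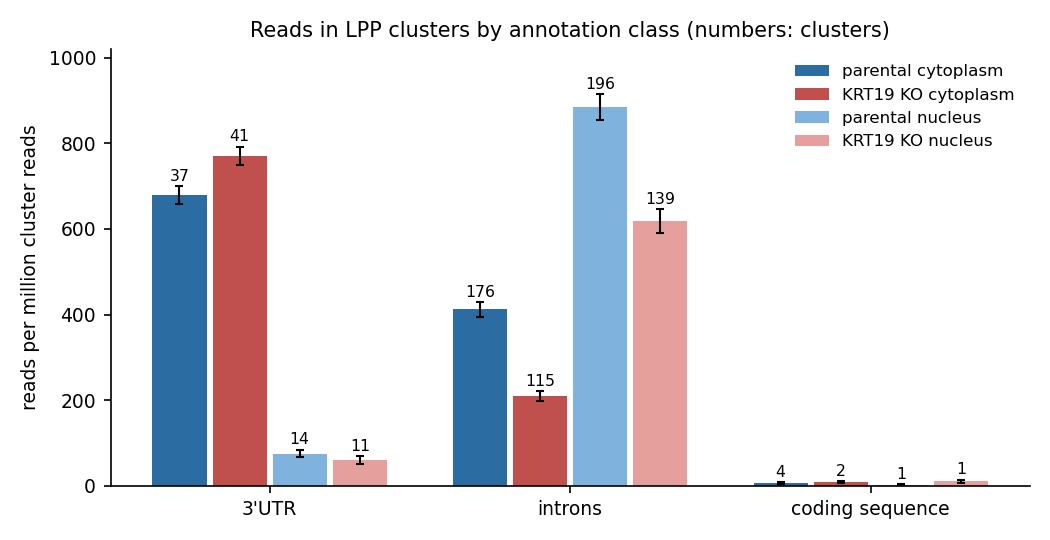
Level in RPM (vertical axis) of LPP by annotation class, with 1 bar for each library, the exact 95% Poisson interval as the error bar and the number of clusters above it. The 3'UTR bars are highest in the cytoplasmic libraries, at 678.9 and 770.4, and the intron bars are highest in the nuclear libraries, at 884.2 and 618.2.

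The 3'UTR held 61.9% of the *LPP* reads in the parental cytoplasm (95% Wilson interval 60.7 to 63.2) and 77.9% in the *KRT19* KO cytoplasm (76.9 to 78.9). It held 7.80% (6.94 to 8.75) and 8.63% (7.53 to 9.86) in the parental and *KRT19* KO nucleus. Over all reads in clusters with a gene name the share was 37.8% and 53.6% in the cytoplasmic libraries, so it was higher in *KRT19* KO cells there too, and 6.42% and 6.89% in the nuclear ones. Among genes with at least 50 reads and clusters of both kinds, the median share was 34.1% over 4680 genes in the parental cytoplasm and 50.8% over 4790 in the *KRT19* KO cytoplasm. *LPP* lay above both of these medians but below the nuclear ones, which were 10.8% and 12%. Its standing in the parental cytoplasm is a description, since the gene was chosen on 3'UTR clusters of that library.

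Between *KRT19* KO and parental cytoplasm, the *LPP* 3'UTR level differed by 1.13-fold, a log2 ratio of 0.18 with a counting interval of 0.12 to 0.24. Without the largest cluster of each library the log2 ratio was -0.05, so the direction rested on the single largest clusters. A gene was called at 2-fold or more, with a pseudocount of 1 read and at least 50 reads of the class in the 2 libraries together. By that rule 40.5% of 4788 genes were higher in the *KRT19* KO cytoplasm, 12.2% were lower, and the median log2 ratio was 0.70. *LPP* was therefore called in neither direction, and 3134 genes had a higher ratio. Since the gene was chosen on its parental cytoplasmic 3'UTR, that ratio is a description.

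The *LPP* intron level was 1.96-fold lower in the *KRT19* KO cytoplasm than in the parental one, at a log2 ratio of -0.97 (-1.07 to -0.87). This was just short of the 2-fold call that 39.1% of 6399 genes met downwards, while 7.24% met it upwards, and the median gene stood at -0.73. In the nucleus the *LPP* intron level was 1.43-fold lower in *KRT19* KO cells, at -0.52 (-0.60 to -0.43), with 18.4% of 7589 genes called lower, 12.5% called higher and a median of -0.15. The nuclear 3'UTR of *LPP* was 1.26-fold lower, at -0.34 (-0.61 to -0.06), where 25.3% of 1793 genes were called lower and 26.6% higher. The *LPP* reads there came from only 53 unique reads in parental and 38 in *KRT19* KO cells. With unique reads the log2 ratio was -0.29, and no interval was computed for it. None of these ratios of *LPP* reached the 2-fold call as computed here. The cytoplasmic intron ratio did pass it, at a log2 value of -1.05, with unique reads as the unit and likewise with the 20 largest clusters left out of the denominator.

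Between fractions each of the 4 *LPP* ratios was at least 2-fold. The parental intron ratio fell short of it, at a log2 value of 0.90, with the 20 largest clusters left out of the denominator. The parental nucleus had a 9.06-fold lower 3'UTR level than the parental cytoplasm and a 2.15-fold higher intron level. In *KRT19* KO cells they were 13.0-fold lower and 2.95-fold higher. The parental 3'UTR ratio is again a description, since the gene was chosen on the cytoplasmic value. Most genes did likewise. In parental cells 78.4% of genes were called lower and 5.92% higher in the nucleus for the 3'UTR, and 50.8% higher and 4.68% lower for introns. In *KRT19* KO cells 83.7% were called lower and 3.73% higher for the 3'UTR, and 74.7% higher and 3.25% lower for introns. The *LPP* log2 ratios of -3.18 and 1.10 in parental cells and -3.70 and 1.56 in *KRT19* KO cells lay near the medians of all genes, which were -2.86, 1.02, -3.41 and 1.66 in the same order.

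Along the 3'UTR the clusters ran from 0.282 kb to 15.9 kb after the stop codon in the parental cytoplasm and from 0.391 kb to 15.4 kb in the *KRT19* KO cytoplasm. They covered 7.73% and 8.51% of its length. The first 2 kb held 10 of the 37 parental clusters with 28.6% of the parental 3'UTR reads, and 14 of the 41 *KRT19* KO clusters with 60.4% of the reads. A second stretch rich in reads lay from 7 to 8 kb, with 4 parental clusters holding 30.1% of the 3'UTR reads and 5 *KRT19* KO clusters holding 12.8%. The single cluster at 7.30 kb held 610 of the 1134 parental reads there. In the *KRT19* KO cytoplasm the single cluster at 0.909 kb held 1365 of the 4789 3'UTR reads. Both contrasts between the libraries thus leaned on single clusters. No library had a cluster from 9 to 10 kb, from 11 to 12 kb or past 16 kb.

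The nuclear 3'UTR clusters were few. The parental nucleus had 6 of its 14 clusters in the first 2 kb, with 38.5% of the reads. The *KRT19* KO nucleus had none there, and its 11 clusters began 5.39 kb after the stop codon. They included 4 clusters from 7 to 8 kb with 75 reads and 1 cluster of 58 reads between 14 and 15 kb. Only 1 3'UTR site had clusters in both nuclear libraries. Of the 14 parental nuclear clusters 7.14% overlapped a *KRT19* KO nuclear cluster (Wilson 1.27 to 31.5), an interval that held the 27.4% of 3'UTR clusters of all genes.

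**Figure D2:**
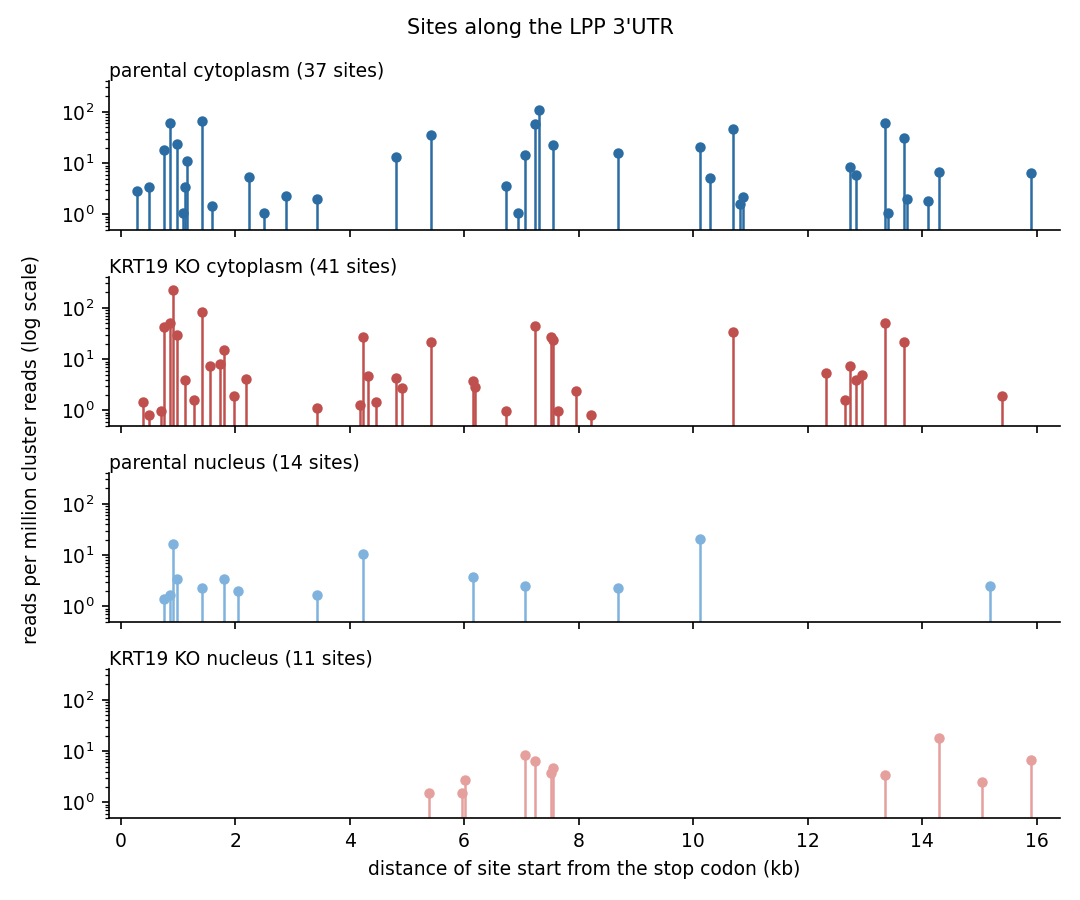
Sites along the LPP 3'UTR in each library. The horizontal axis is the distance of the site from the stop codon in kb, and the vertical axis is the level in RPM on a log scale, with 1 line for each site that has a cluster in that library. Both cytoplasmic libraries have sites from under 0.4 kb to past 15 kb, and the KRT19 KO nucleus has none before 5.39 kb.

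The deepest 3'UTR site, which begins 0.909 kb after the stop codon at chr3:188593176-188593222, had 1365 reads in the *KRT19* KO cytoplasm, 219.6 RPM, from 661 unique reads. It had 59 reads in the parental nucleus, and no cluster was listed in the parental cytoplasm or the *KRT19* KO nucleus. The nearest parental cytoplasmic cluster lay 9 nt away and held 344 reads.

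The site at 7.30 kb, chr3:188599569-188599608, had the opposite listing. It held 610 reads in the parental cytoplasm, 109.9 RPM, from 192 unique reads, and no cluster in the other 3 libraries. The nearest *KRT19* KO cytoplasmic cluster lay 24 nt away and held 276 reads. A site without a cluster is not a site without reads, since a cluster also has to pass the caller's thresholds on reads and conversions, and no deposited cluster had fewer than 5 reads. Each of these sites was thus listed in 1 of the 2 cytoplasmic libraries. Of all 652 parental cytoplasmic 3'UTR clusters with at least 500 reads, 9.82% overlapped no *KRT19* KO cytoplasmic cluster, and of 1153 such *KRT19* KO clusters 21.5% overlapped no parental one.

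Other strong sites were alike in both cytoplasmic libraries. The site at 1.43 kb had 374 and 508 reads in the parental and *KRT19* KO cytoplasm, or 67.4 and 81.7 RPM, and 8 reads in the parental nucleus. At 0.865 kb the reads were 344 and 319, or 62.0 and 51.3 RPM, with 6 in the parental nucleus. At 13.3 kb they were 335 and 312, or 60.3 and 50.2 RPM, with 11 in the *KRT19* KO nucleus. These ratios were between 0.828 and 1.21 in *KRT19* KO over parental.

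The site at 7.24 kb had 320 and 276 reads in the 2 cytoplasmic libraries, 57.6 and 44.4 RPM, and 21 in the *KRT19* KO nucleus. The site at 10.7 kb had 256 and 212, or 46.1 and 34.1 RPM, and no nuclear cluster. The site at 0.764 kb was the one of the 8 with more than a 2-fold ratio among those listed in both, with 102 and 259 reads, 18.4 and 41.7 RPM, a ratio of 2.27 (exact counting interval 1.80 to 2.88).

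Of the 23 *LPP* 3'UTR sites with at least 50 reads over the 2 cytoplasmic libraries together, 13 had a cluster in both, 5 in *KRT19* KO alone and 5 in parental alone. Over 10605 such sites of all genes 65.0% had a cluster in both. Among the 13 shared sites of *LPP*, 4 were higher in *KRT19* KO and 9 lower, with a median log2 ratio of -0.27 and a range from -1.62 to 1.18. Among 6896 shared sites of all genes 69.9% were higher and the median was 0.52. Nothing is read from this contrast, because the gene was chosen on the library in the denominator. By the 2-fold call 1 *LPP* site was higher and 1 lower, where 30.8% and 6.44% of all shared sites were. Over the 17 *LPP* 3'UTR sites with a cluster in both libraries at any depth, log2 RPM correlated with Pearson's r = 0.940 and Spearman's rho = 0.921, as a description of sites that share the same 2 libraries.

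**Figure D3:**
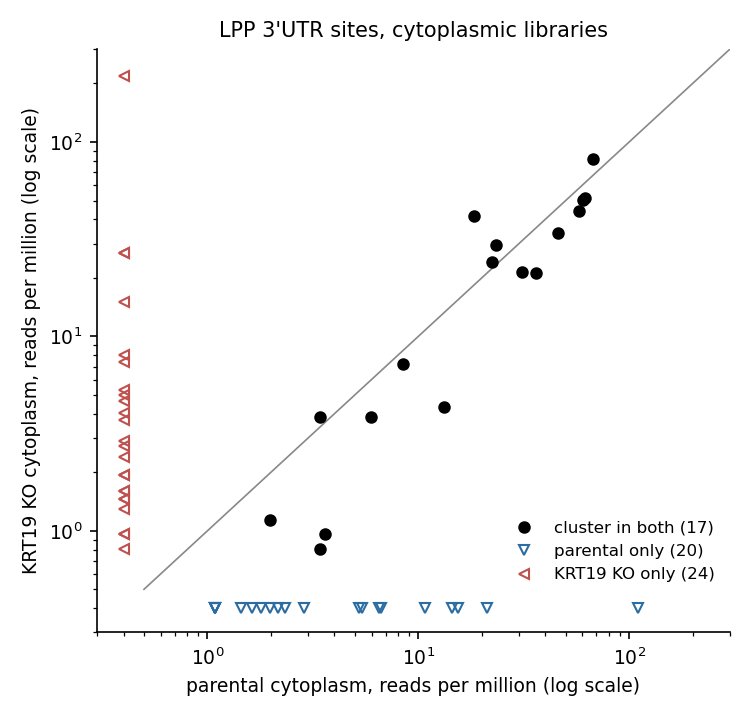
Levels in RPM of LPP 3'UTR sites in the parental cytoplasm (horizontal axis) and the KRT19 KO cytoplasm (vertical axis), both on log scales, with the line of equal values. Filled points are the 17 sites with a cluster in both, and open triangles at the margins, placed at no measured value, are the 20 sites with a cluster in the parental library alone and the 24 in the KRT19 KO library alone.

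Over the 4 libraries the 737 clusters merged into 67 3'UTR sites, 474 intron sites and 6 coding sites. Of the 3'UTR sites 40 were found in 1 library, 18 in 2, 9 in 3 and 0 in all 4, where 2.60% of 45293 3'UTR sites of all genes were found in all 4. Found in 2 or more libraries were 40.3% of *LPP* 3'UTR sites, against 32.1% for all genes. With at least 50 reads in a library the share rose to 86.4% of 22 *LPP* sites, against 75.6% for all genes. The number of libraries that shared a site thus went with its depth.

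Most intron sites were found in a single library. Of 474 *LPP* intron sites 367 were found in 1 library, 71 in 2, 27 in 3 and 9 in all 4. The share in 2 or more was 22.6%, against 24.4% over 349628 intron sites of all genes. It was 83.3% for the 12 *LPP* sites with at least 50 reads in a library, against 86.6%.

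Overlap was also counted between pairs of libraries. Of the 37 parental cytoplasmic 3'UTR clusters 45.9% overlapped a *KRT19* KO cytoplasmic cluster (Wilson 31.0 to 61.6), where the value for all genes was 48.0%. Of the 6 with 5 to 9 reads none did, and of the 16 with 50 or more reads 11 did, or 68.8%. The share did not climb with depth in every pair. Of the 41 *KRT19* KO cytoplasmic clusters 33.3% of those with 5 to 9 reads, 23.5% of those with 10 to 49 and 66.7% of those with 50 or more overlapped a parental cytoplasmic one, and of the 14 parental nuclear clusters the shares were 75%, 25% and 50% on 8, 4 and 2 clusters. Of the 176 parental cytoplasmic intron clusters 21.6% (16.2 to 28.2) overlapped one of the *KRT19* KO cytoplasm, against 22.8% for all genes, and 23.9% (18.2 to 30.7) overlapped one of the parental nucleus, against 24.8%.

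Intron clusters lay in 10 of the 11 introns in the parental cytoplasm, and the last intron had a cluster in the *KRT19* KO cytoplasm alone. Intron 2, of 116.1 kb out of 718.2 kb of intron, held the most in each library, with 56, 38, 65 and 45 clusters in the parental cytoplasm, *KRT19* KO cytoplasm, parental nucleus and *KRT19* KO nucleus. Its share of the *LPP* intron reads was 38.5%, 39.0%, 40.9% and 37.2% in the same order. Its density was 4.82, 3.27, 5.60 and 3.87 clusters per 10 kb, where all introns together had 2.45, 1.60, 2.73 and 1.94. Without the first stretch of intron 1, where no cluster was named *LPP*, the introns together had 2.67, 1.75, 2.98 and 2.11. Both sets of values include intron 2 itself.

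Intron 7, which hosts *MIR28*, had 25, 17, 32 and 16 clusters, or 2.54, 1.73, 3.25 and 1.63 per 10 kb. No cluster of any gene overlapped *MIR28* at chr3:188406569-188406654. Intron 5, of 40 kb, had 7, 1, 2 and 3 clusters, or 1.75, 0.25, 0.501 and 0.751 per 10 kb. Intron 10 was short, at 6.26 kb, and had 3, 3, 2 and 0 clusters. The intron clusters were deep inside the introns, since none lay within 100 nt of an exon and the median distance to the nearest exon was 19.6, 18.2, 22.6 and 21.5 kb. The nearest clusters were 162, 178, 301 and 1021 nt from an exon.

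The first stretch of the gene had no cluster named *LPP*. The first such cluster began at chr3 position 187931654, 59.7 kb after the start of the transcript model and inside its intron 1. In that stretch on the same strand 16, 14, 25 and 14 clusters had no gene name, with 255, 125, 378 and 156 reads. Their density of 2.68, 2.34, 4.19 and 2.34 per 10 kb stood beside 2.67, 1.75, 2.98 and 2.11 for the *LPP* intron clusters over the rest of the introns. These clusters are not counted in the *LPP* values, and adding them would raise the intron reads by 11.2%, 9.59%, 12.1% and 7.76%.

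**Figure D4:**
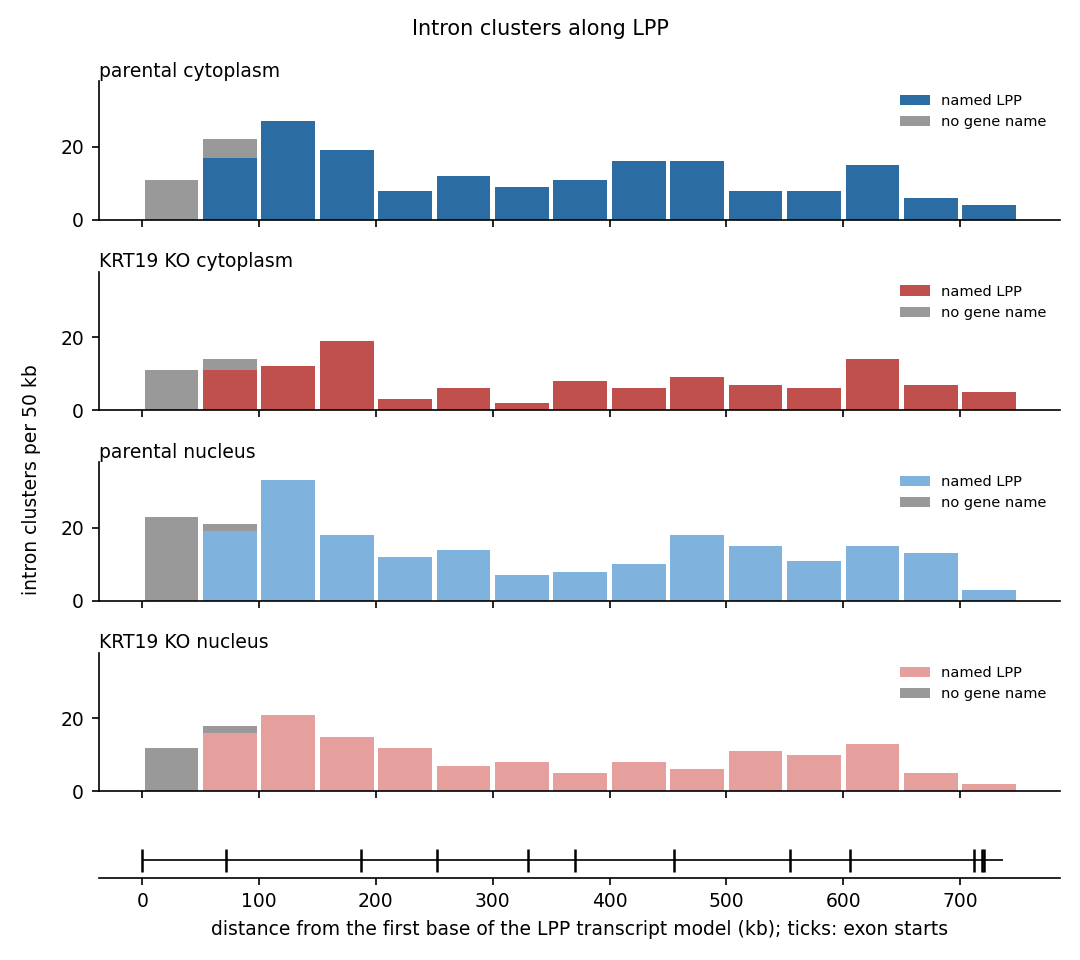
Intron clusters named LPP (coloured) and clusters with no gene name on the same strand (grey) in stretches of 50 kb along the gene, by library. The horizontal axis is the distance from the first base of the transcript model in kb, and the ticks of the lowest panel mark where exons start. The highest coloured bars lie between 100 and 200 kb, with up to 33 clusters in a stretch, and the first 50 kb hold grey bars alone.

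The intron 3 site at chr3:188077390-188077419 went against most shared intron sites in being higher in the *KRT19* KO nucleus. It had 35 reads in the parental nucleus and 66 in the *KRT19* KO nucleus, 9.89 and 20.3 RPM, a ratio of 2.05 (1.34 to 3.18). It had 34 reads in the parental cytoplasm and no cluster in the *KRT19* KO cytoplasm. Of the 13 deeper *LPP* intron sites shared by the nuclear libraries, counted below, this site alone was higher and 12 were lower. This holds for that depth alone, since some shallower shared sites were higher in the *KRT19* KO nucleus too. The 12 also included sites that were nearly level, such as the one 108.991 kb from the gene start, at 10.2 and 10.1 RPM. The intron 6 site at chr3:188246163-188246198 had 34 and 26 reads in the parental and *KRT19* KO cytoplasm and 70 in the parental nucleus, with no *KRT19* KO nuclear cluster.

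Of the 4 intron 2 sites, the ones at chr3:188039533-188039566 and chr3:188015414-188015470 were in all 4 libraries. The first had 25, 42, 62 and 35 reads and the second 47, 32, 51 and 26, in the order parental cytoplasm, *KRT19* KO cytoplasm, parental nucleus and *KRT19* KO nucleus. The site at chr3:187957729-187957759 had 72, 56 and 34 reads in the parental cytoplasm, parental nucleus and *KRT19* KO nucleus. The site at chr3:187968316-187968353 was nuclear in its listing, with 62 and 47 reads in parental and *KRT19* KO nucleus, as was the intron 8 site at chr3:188437507-188437539, with 50 and 41.

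Over the 14 *LPP* intron sites with at least 50 reads in the 2 nuclear libraries together, 13 had clusters in both, or 92.9%, against 69.6% of 13783 such sites of all genes. Of these 1 was higher in the *KRT19* KO nucleus and 12 lower, with a median log2 ratio of -0.60, where 42.1% of 9593 shared intron sites of all genes were higher and the median was -0.26. By the 2-fold call 1 was higher and 2 lower, against 17.3% and 28% of all shared intron sites. Over the 38 *LPP* intron sites in both nuclear libraries at any depth Pearson's r of log2 RPM was 0.563 and Spearman's rho 0.535.

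Coding sites were 6. The one at chr3:188202384-188202412 began 4 nt after the first base of exon 5, and cytosines made up 51.7% of it. It had 36 reads in the *KRT19* KO cytoplasm, 6 in the parental nucleus and 33 in the *KRT19* KO nucleus, or 5.79, 1.70 and 10.1 RPM, and no cluster in the parental cytoplasm. The nuclear ratio was 5.98 (2.47 to 17.5), on 6 parental reads from 1 unique read. The other coding sites had a cluster in 1 library each. They were a site of 17 reads in exon 4 at chr3:188124078-188124100 in the *KRT19* KO cytoplasm, and in the parental cytoplasm sites of 9 reads in exon 10 at chr3:188584041-188584069, 8 reads in exon 7 at chr3:188326975-188327005, 7 reads in exon 5 at chr3:188202455-188202487 and 5 reads in exon 7 at chr3:188327108-188327135.

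T-to-C changes mark the 4-thiouridine residues that were crosslinked. In the *LPP* 3'UTR 56.1% of reads carried such a change in the parental cytoplasm (Wilson 54.6 to 57.7) and 56.9% in the *KRT19* KO cytoplasm (55.5 to 58.3), against 53.4% and 55.1% over all 3'UTR clusters. In the nucleus the *LPP* 3'UTR value was 76.6% (71.1 to 81.3) for the parental library and 60.6% (53.6 to 67.2) for the *KRT19* KO one, against 65.8% and 69.3%. In introns they were 73.9%, 74.3%, 76.1% and 81.2% in the parental cytoplasm, *KRT19* KO cytoplasm, parental nucleus and *KRT19* KO nucleus, against 74.3%, 68.0%, 73.9% and 78.5%. Clusters were called on conversions, so the share has a floor, and intron clusters were shallow. With at least 10 reads the cytoplasmic intron shares of *LPP* were 64.5% and 64.8%, and the 3'UTR ones 55.8% and 56.5%.

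Converted positions per cluster were counted as well. The mean number of conversion locations per cluster was 5.59 and 6.20 for the cytoplasmic 3'UTR of parental and *KRT19* KO cells, against 3.67 and 5.00 over all 3'UTR clusters. The *LPP* clusters were also deeper, with a median of 36.0 and 27.0 reads against 16.0 and 19.0. Intron clusters had means of 1.71, 2.02, 1.38 and 1.30 locations, beside 1.86, 2.40, 1.5 and 1.37. Many intron clusters rested on 1 unique read, namely 23.9%, 13.0%, 35.7% and 35.3%, near the 25.4%, 14.5%, 36.4% and 37.0% of all intron clusters.

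In the cytoplasmic libraries a smaller share of *LPP* 3'UTR clusters than of its intron clusters held the motif. It was present in 6 of 37 3'UTR clusters in the parental cytoplasm, or 16.2% (Wilson 7.65 to 31.1), and in 5 of 41 in the *KRT19* KO cytoplasm, or 12.2% (5.32 to 25.5). Over all 3'UTR clusters, weighted to the same lengths, it was 27.5% and 26.5%. The 3'UTR and intron intervals overlapped in the parental library and did not in the *KRT19* KO one. The parental 3'UTR interval held the value of all genes, and the *KRT19* KO interval ended just below it. With CCC alone as the motif the *KRT19* KO intervals of the 3'UTR (15.7 to 41.9) and introns (38.1 to 56.0) overlapped, as they did with UCCC (8.53 to 31.3 and 29.1 to 46.5), and the 3'UTR ones held the values of all genes, 38.2% and 25.4%. The nuclear 3'UTR counts were 2 of 14 and 4 of 11, with intervals from 4.01 to 39.9% and from 15.2 to 64.6% that held the values of all genes, 35.4% and 33.8%.

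In *LPP* intron clusters the motif was present in 33.0%, 37.4%, 34.2% and 36.0% in the order of libraries above, against 30.4%, 31.0%, 32.8% and 33.2% for all intron clusters at the same lengths. All 4 intervals held the value of all genes. A run of CCC was present in 27.0%, 26.8%, 35.7% and 45.5% of the 3'UTR clusters, against 37.5%, 38.2%, 47.8% and 45.1% for all genes at the same lengths. In the intron clusters it was present in 46.6%, 47.0%, 41.8% and 52.5%, against 40.4%, 40.8%, 45.1% and 44.2%.

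**Figure D5:**
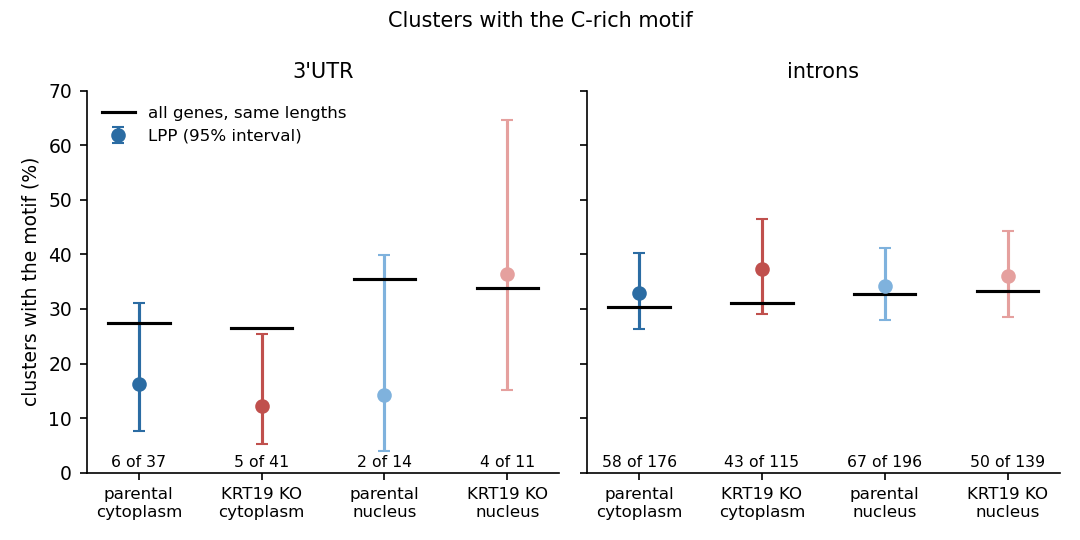
Share of LPP clusters with the motif (points, with 95% Wilson intervals) and the same share in clusters of all genes weighted to the same lengths (black bars), in percent, by library, for the 3'UTR (left) and introns (right). The cytoplasmic 3'UTR points, at 16.2% and 12.2%, lie below the bars, and the 4 intron points lie a little above them.

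The sequence of the gene offered the motif about equally in both regions, with 75 occurrences in the 3'UTR, 4.63 per kb, and 3426 in the introns, 4.77 per kb. Of the 75 in the 3'UTR 13 lay in a site, or 17.3%, where the sites covered 14.0% of the 3'UTR. Guanine made up 18.4% of the 3'UTR and 19.9% of the introns, but 9.59% and 10.2% of the cytoplasmic 3'UTR clusters and 5.54% and 4.85% of the cytoplasmic intron clusters. Uracil, written T, made up 38.6% and 38.8% of the cytoplasmic 3'UTR clusters against 32.1% of the 3'UTR. All clusters of these classes were similarly low in guanine, at 10.0% and 11.1% in 3'UTRs and 6.03% and 5.35% in introns of the cytoplasmic libraries.

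The first place of *LPP* among genes for 3'UTR clusters held in the parental cytoplasm, where *TEAD1*, a transcription factor of the Hippo pathway, had 36, *CBX5*, a heterochromatin protein, 34, *NUCKS1*, a nuclear DNA-binding protein, 32, and *CDK6*, a cell cycle kinase, 30. In the *KRT19* KO cytoplasm *LPP* had 41, a number that 8 genes reached or passed, itself included, where *CBX5* had 53, *CDK6* 43 and *TEAD1* 39. In the parental nucleus 11 genes had at least as many as *LPP*, itself included, and in the *KRT19* KO nucleus 19.

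Per length the order was different. The *LPP* 3'UTR, at 16.2 kb, is longer than those of *CBX5* (10.8 kb), *CDK6* (10.2 kb), *TEAD1* (7.51 kb) and *NUCKS1* (5.46 kb). *LPP* had 2.28 3'UTR clusters per kb in the parental cytoplasm, against 4.79 for *TEAD1*, 3.14 for *CBX5*, 5.86 for *NUCKS1* and 2.94 for *CDK6*. It ranked 233 of the 342 genes with at least 10 3'UTR clusters there, whose median was 2.76 per kb, 454 of 640 in the *KRT19* KO cytoplasm, 31 of 32 in the parental nucleus and 27 of 27 in the *KRT19* KO nucleus. By level the *LPP* 3'UTR had 41.9 RPM per kb in the parental cytoplasm and 47.6 in the *KRT19* KO cytoplasm, against medians of 4.85 and 6.87 over all genes with 3'UTR clusters. Above *LPP* lay 11.3% and 14.9% of these genes, and the parental value is again shaped by the choice of the gene. In the parental and *KRT19* KO nucleus the level was 4.63 and 3.66 RPM per kb, with 32.1% and 42.3% of genes above it.

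By introns *LPP* ranked 26 of 9579 genes in the parental cytoplasm, 32 in the *KRT19* KO cytoplasm, 23 in the parental nucleus and 37 in the *KRT19* KO nucleus by number of clusters. Its intron level was 0.573, 0.292, 1.23 and 0.861 RPM per kb in these libraries. *EXT1*, a heparan sulfate polymerase gene with many intron clusters, had 13.4, 6.64, 21.8 and 18.9. The 3'UTR of *EXT1* had 13.2 RPM per kb in both cytoplasmic libraries, below that of *LPP*.

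The genes with the most similar levels were looked for over 8 values, the log2(RPM + 1) of the 3'UTR and of the introns in the 4 libraries, among 7610 genes. The nearest by Euclidean distance were *DCBLD2*, a membrane receptor, at 1.18, *CDK6* at 1.41, *MKLN1*, muskelin, at 1.43, *EDIL3*, an integrin ligand, at 1.93 and *SLC38A1*, a glutamine transporter, at 2.04, where the median distance was 15.9. *DCBLD2* had 639.8 and 578.8 3'UTR RPM in the parental and *KRT19* KO cytoplasm and 51.4 and 99.0 in the nucleus.

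The other 6 zyxin family genes each had fewer clusters than *LPP*. All 6 had a cluster, and 5 had a 3'UTR cluster. In the parental cytoplasm alone 13388 genes had a cluster and 6340 had one in the 3'UTR. No share over all annotated genes was computed, and nothing about the family is read from these counts. *LIMD1*, a scaffold of the same family, had 93 clusters over the 4 libraries. Its 3'UTR had 42.5, 113.6, 17.8 and 4.61 RPM in the parental cytoplasm, *KRT19* KO cytoplasm, parental nucleus and *KRT19* KO nucleus. *AJUBA*, with 52 clusters, had 178.3, 207.0, 41.3 and 22.7. Per kb of 3'UTR *AJUBA* stood above *LPP* in the parental cytoplasm, at 78.7 against 41.9 RPM per kb, and *LIMD1* below it, at 4.58. *WTIP* had 14 clusters and *ZYX*, the gene of zyxin, 13. *ZYX* had no 3'UTR cluster.

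Of the family genes with at least 50 reads of the class, 1 of 2 was called higher for the cytoplasmic 3'UTR in *KRT19* KO cells and 0 lower, and 1 of 2 was lower for cytoplasmic introns and 0 higher. *LIMD1* was the former, with a log2 ratio of 1.41, and *AJUBA* the latter, at -1.53. Over all genes 40.5% were called higher and 12.2% lower for the cytoplasmic 3'UTR, and 39.1% lower and 7.24% higher for cytoplasmic introns. In the nucleus 1 of 2 was called lower for the 3'UTR, *LIMD1* at -1.88, and 1 of 3 for introns, *AJUBA* at -2.29, with 0 higher in either, where 25.3% and 18.4% of all genes were called lower and 26.6% and 12.5% higher.

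All 26 genes of focal adhesion and actin partners had at least 1 cluster, and 20 had 1 or more in the 3'UTR. Nothing about the list is read from these counts, since 13388 genes had a cluster and 6340 a 3'UTR cluster in the parental cytoplasm alone. Among the genes of the list with the most clusters over the 4 libraries were *PTK2*, the focal adhesion kinase gene, with 734, *PALLD*, palladin, with 268, *ACTN1*, an alpha-actinin, with 262, and *TNS3*, a tensin, with 260. *PTK2* thus had about as many clusters as *LPP*. Its 3'UTR of 1.57 kb had 3, 1, 0 and 1, or 37.6 and 38.5 RPM per kb in the cytoplasmic libraries beside 41.9 and 47.6 for *LPP*. For cytoplasmic introns 10 of the 20 genes tested were called lower in *KRT19* KO cells and 0 higher, with a median log2 ratio of -0.99, where 39.1% of all genes were called lower and 7.24% higher and the median was -0.73. *LPP*, at -0.97, was near the middle of this list. For the cytoplasmic 3'UTR 4 of 13 were called higher and 2 lower, with a median of 0.37, where 40.5% of all genes were called higher and 12.2% lower and the median was 0.70. In the nucleus 3 of 20 were called lower and 2 higher for introns, against 18.4% and 12.5% of all genes. For the nuclear 3'UTR 1 of 7 was called lower and 3 higher, against 25.3% and 26.6%.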

How the data were processed

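HNRNPK PAR-CLIP clusters of 4 libraries were analysed, 1 per condition. Per the methods of the study, the authors referenced the reads to hg19 and removed duplicates by molecular identifiers and called and annotated clusters with PARalyzer in PARpipe on T-to-C changes, after digestion with RNase T1, which cuts after guanine. The submitters' processing notes list hg38, Bcl2fastq 2.20.0, TopHat, Cuffdiff and Cufflinks 2.2.1 for the series without a role, so the build was checked against the sequences. The authors deposited raw read counts, counts of unique and of T-to-C reads and the number of conversion locations for each cluster, without normalization. The fraction of T-to-C reads, the mode score and the log10 conversion specificity that the authors also deposited were not used. Gene names and classes are those of the files.

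Counts were scaled to RPM, per 1000000 reads in clusters of the library, between 3252800 and 6216226. The transcript model was the MANE Select transcript of GENCODE on GRCh37 in place of the longest RefSeq one first planned. Lengths of other genes came from MANE or canonical models, which 93.5% of 8456 genes with a 3'UTR cluster matched by name. Intervals at 95% were exact Poisson for levels, Wilson for shares and exact conditional binomial for ratios, and cover counting error only. No test was made, since each condition had 1 library. The motif was searched on the RNA strand alone. Functions for sites, overlap, motif and intervals were tested on simulated data. Python 3.11.15, pandas 2.3.3, numpy 2.4.6, scipy 1.17.1 and matplotlib 3.10.9 were used.

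*LPP*, the gene lists and the settings were chosen with earlier results of these data known. Sites were named by rule, namely every coding site and the 8 3'UTR and 8 intron sites with the highest level in any library, of which 1 intron site is not reported here. Genes named beside *LPP* were the other 4 of the 5 that lead the parental cytoplasm by number of 3'UTR clusters, *EXT1*, the 5 most alike and the 4 of each list with the most clusters, without 1 gene of a tie. The deep clusters of at least 500 reads were counted after the data were seen. Alternatives covered thresholds on reads, unique reads and conversion locations, unique reads as the unit, the denominator, the largest cluster, overlap and motif.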

Additional observations from a re-analysis of the deposited data

Results flagged for a closer look

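Each pattern here compares single libraries, and none of the differences between contrasts was tested. As deposited, the *LPP* 3'UTR differences between *KRT19* KO and parental cells had opposite signs in the 2 fractions, but the cytoplasmic log2 ratio was -0.05 without the largest cluster of each library. The parental cytoplasmic cluster count is also the one the gene was chosen on. From parental to *KRT19* KO cells its level changed by 91.5 RPM in the cytoplasm and by -15.6 in the nucleus, and its number of clusters by 4 and -3. With at least 10 reads the parental and *KRT19* KO clusters numbered 31 and 32 in the cytoplasm and 6 and 7 in the nucleus. The nuclear direction thus turned. The T-to-C share of its reads changed by 0.759 percentage points in the cytoplasm and by -16.0 in the nucleus, where the *KRT19* KO library had 193 3'UTR reads. The motif share of the *LPP* 3'UTR clusters changed by -4.02 points in the cytoplasm and by 22.1 in the nucleus, on 14 parental and 11 *KRT19* KO nuclear clusters. These sizes depended on the motif. With UCCC the parental and *KRT19* KO shares were 35.7% and 36.4% in the nucleus and 24.3% and 17.1% in the cytoplasm. With CCC they were 35.7% and 45.5% in the nucleus and 27.0% and 26.8% in the cytoplasm.

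From cytoplasm to nucleus the motif share of 3'UTR clusters changed by -1.93 points in parental and by 24.2 in *KRT19* KO cells, and that of intron clusters by 1.23 and -1.42 points. With CCC as the motif the parental 3'UTR shares were 27.0% and 35.7%, so that direction turned. The CCC intron shares were 46.6% and 41.8% in parental and 47.0% and 52.5% in *KRT19* KO cells, so both directions turned. Only the 3'UTR rise in *KRT19* KO cells kept its direction with CCC, at 26.8% and 45.5%.

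Clusters that the report's levels leave out also held signal. On the *LPP* strand inside the gene, 16 clusters without a gene name lay in the parental cytoplasm, 14 in the *KRT19* KO cytoplasm, 25 in the parental nucleus and 14 in the *KRT19* KO nucleus. Over the 4 libraries these 69 clusters formed 51 sites, of which 11 were found in 2 or more libraries and 0 in all 4. In addition *AC022498.1* had 1 cluster on that strand in each nuclear library.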

How the results depend on the processing

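Of 144 alternative values, 81 kept their direction and lay within counting error of the reported value or within 1.5 times a reported count. Among the log2 ratios between libraries, the 1 direction that turned was that of the cytoplasmic 3'UTR ratio of *KRT19* KO to parental cells. This ratio was -0.05 without the largest cluster of each library. Differences between libraries in motif share, T-to-C share and cluster number were not among these values. Some of their directions turned, as given with the flagged results above. No paired analysis was possible because the labels of these 4 libraries carry no replicate numbers to block on, and pairing by fraction or genotype was not tried. In each list below the order is parental cytoplasm, *KRT19* KO cytoplasm, parental nucleus and *KRT19* KO nucleus unless libraries are named, and the cause of the shifts was not tested.

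Requiring 10 reads left 110, 77, 120 and 94 *LPP* clusters, requiring 2 conversion locations left 104, 103, 51 and 34, and requiring 2 unique reads left 134 and 99 in the nuclear libraries. With 10 reads the 3'UTR share of reads was 69.6% and 84.3% in the cytoplasmic libraries, the intron T-to-C share was 64.5%, 64.8%, 71.2% and 77.6%, and that of the parental nuclear 3'UTR was 70%. The motif share was then 43.0% and 53.5% in cytoplasmic introns and 0% in the parental nuclear 3'UTR. With CCC as the motif it was 46.6%, 47.0%, 41.8% and 52.5% in introns and 26.8% in the *KRT19* KO cytoplasmic 3'UTR.

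Counting each cluster once put the 3'UTR share at 17.1%, 25.9%, 6.64% and 7.28%. Unique reads gave 63.5% and 79.0% in the cytoplasmic libraries, with 3'UTR levels of 729.5 and 796.5 RPM. The median T-to-C share over clusters was 66.3%, 63.0%, 100% and 88.9% in the 3'UTR and 100%, 88.9%, 100% and 100% in introns.

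Leaving the 20 largest clusters out of the denominator gave 3'UTR levels of 794.3 and 852.8 in the cytoplasmic libraries, and intron levels of 481.8, 232.2 and 647.3 in the parental cytoplasm, *KRT19* KO cytoplasm and *KRT19* KO nucleus. The log2 ratios were then 0.10 for the 3'UTR between the cytoplasmic libraries, and -3.38 for the 3'UTR and 0.90 for introns between the parental nucleus and cytoplasm. Without the largest *LPP* cluster of each library the 3'UTR levels were 569.0, 550.8, 54.3 and 41.5, the parental nuclear intron level was 847.2, and the parental nucleus to cytoplasm 3'UTR ratio was -3.39. The T-to-C share was then 59.2% and 59.6% in the cytoplasmic 3'UTR and 78.4% in parental nuclear introns.

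The ratios between libraries under other settings, and the counts with unnamed clusters, were added after the data were seen. The clusters without a gene name raised the intron levels to 457.7, 229.9, 991.1 and 666.2. Depth limited the nuclear 3'UTR, with 265 and 193 reads, and the coding clusters, with 29, 53, 6 and 33. The number of clusters depends on the thresholds of the caller, and no library had a replicate against which its own variation could be set.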
